A study of Mus musculus with 8 samples.

Results

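The mouse Phf11 gene cluster is a run of related genes on chromosome 14 that lies between Rcbtb1 and Setdb2. The 6 genes described here are the paralogs Phf11a, Phf11b, Phf11c and Phf11d and the flanking genes Setdb2 and Rcbtb1. They were taken by gene name from the 27110 genes of the deposited table. They had been picked with their difference between the genotypes in view. Their LKO and Fl/Fl values are therefore a description and carry no test.

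The libraries are total RNA of whole mouse liver at week 7 without treatment, 8 in all. LKO livers (4 libraries, 3, 4, 12 and 13, all female) carry a liver-restricted deletion of Pkd1l1, which encodes a polycystin-family membrane protein. The Fl/Fl livers are the controls, with 3 female libraries (5, 7 and 9) and 1 male library (10). No source used here gives the Cre driver or the strain background. Hepatocytes and cholangiocytes are the cell types named in the labels, but the RNA is of bulk tissue. In such libraries fewer cells of a type and less RNA per cell cannot be told apart.

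Counted reads ran from 71491723 to 76622375 per library. Pkd1l1 itself had 2 reads in LKO, 2 in the female controls and 0 in the male one, each summed over the group, so it could not check the genotype labels. Markers of hepatocytes were abundant in every library, with a summed level of 154274 to 171426 CPM in LKO, 160415 to 165374 CPM in the female controls and 118496 CPM in the male one. CPM is a gene's reads per 1000000 reads of the library, with library sizes scaled by TMM. Cholangiocyte markers stood at 206 to 274 CPM over the 8 libraries. Each fold change sets LKO over the female controls on the log2 scale, from a fit with terms for genotype and sex, and stands with its standard error. The male library enters under its own sex term and carries no weight in them.

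Phf11 proteins carry a PHD-type zinc finger, a fold that many chromatin proteins use to bind histone tails. Human PHF11 is known from lymphocytes, where it was linked to allergy and to antibody class switching, and the mouse Phf11 genes are known as genes induced by interferon. Setdb2 encodes a SET-domain enzyme that methylates lysine 9 of histone H3, a mark of silenced chromatin. In liver and macrophages Setdb2 is known to be induced by glucocorticoids and by interferon. Rcbtb1 encodes a protein with RCC1 repeats and a BTB domain that serves as an adaptor of the cullin 3 ubiquitin ligase.

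The 6 genes span 240 kb of chromosome 14, from 59201209 to 59440884 in mm10 as deposited. Rcbtb1 (ENSMUSG00000035469, 59201209 to 59237265) lies on the plus strand and the others on the minus strand. From low to high coordinate they are Phf11a (ENSMUSG00000044703, 59276913 to 59297522), Phf11b (ENSMUSG00000091649, 59320964 to 59341351), Phf11d (ENSMUSG00000068245, 59347407 to 59365470), Phf11c (ENSMUSG00000091144, 59380833 to 59395381) and Setdb2 (ENSMUSG00000071350, 59402009 to 59440884). All 6 had the same coordinates in the GENCODE M21 annotation. Transcription of the minus-strand genes runs toward Rcbtb1, so Setdb2 ends 6627 bases before Phf11c starts. RefSeq (GRCm38.p6) also lists a readthrough gene, Gm45935 or Setdb2-phf11c, over 59380833 to 59440880. Reads of such a transcript would be counted under Setdb2, Phf11c or both, and the counts per gene cannot tell them apart.

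The paralogs are near copies, and this bears on how reads are divided among them. The coding sequences of Phf11a and Phf11b were identical at 97.1% of 828 aligned bases. Phf11c was further from the rest, at 85.6% against Phf11a, 85.2% against Phf11b and 85.2% against Phf11d. The stretch of 60 coding bases most alike in the GENCODE transcripts was the same at all 60 positions in the 4 paralogs. A read within it cannot be assigned to one of them, and it is printed once.
All Phf11 paralogs: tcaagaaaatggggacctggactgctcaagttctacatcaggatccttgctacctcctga
The ungapped stretch least alike shared 32 of 60 positions. It is shown because reads over it separate Phf11c from its relatives, with capitals marking each base that differs from Phf11c.
Phf11c: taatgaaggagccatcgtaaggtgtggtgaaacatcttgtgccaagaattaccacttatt
Phf11a: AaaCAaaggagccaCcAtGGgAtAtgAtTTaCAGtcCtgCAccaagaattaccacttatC
Phf11b: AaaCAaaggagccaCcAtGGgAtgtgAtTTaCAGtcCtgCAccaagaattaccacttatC
Phf11d: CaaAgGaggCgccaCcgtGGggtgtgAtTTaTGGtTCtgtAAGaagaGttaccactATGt
In this stretch Phf11a, Phf11b and Phf11d differed from Phf11c at 19, 18 and 22 positions.

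Over whole transcripts, 10.2% of the stretches of 50 bases in Phf11c also occurred in another copy, counting the nearby predicted gene Gm6904 as a copy. The share was 7.98% for Phf11d, 35.2% for Phf11a and 47.0% for Phf11b. With 100 bases the shares were 5.86% for Phf11c and 3.78% for Phf11d, and 8.13% and 13.8% for Phf11a and Phf11b. No source used here says whether the counting kept reads that fit several places. Phf11a and Phf11b are thus the members whose counts are the least certain. In GENCODE the first exon of Phf11c takes up 2352 bases, and its other exons 1107. Most stretches of Phf11c thus come from this exon, and its shares of 10.2% and 5.86% hold for that transcript only.

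RefSeq promoter windows (250 bases before to 50 after each start, GRCm38.p6) were found for all 6 genes. Phf11a and Phf11b have nearly the same window, identical at 98.2% of 279 aligned bases. Both hold the core of the interferon-stimulated response element, searched as GAAA, any 2 bases and GAAA on either strand, which 3.44% of all 32851 windows held. It is shown for Phf11b (chr14:59341352-59341580, minus strand), with the overlapping shorter core AANNGAAA in capitals.
Phf11b upstream: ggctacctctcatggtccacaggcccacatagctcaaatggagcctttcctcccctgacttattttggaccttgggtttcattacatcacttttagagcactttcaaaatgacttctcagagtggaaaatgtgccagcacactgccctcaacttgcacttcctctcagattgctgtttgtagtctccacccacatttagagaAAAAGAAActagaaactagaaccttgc
The shorter core, bound by interferon regulatory factors, also lay across the start of Phf11d, and 23.9% of all windows held it. The windows of Phf11c, Setdb2 and Rcbtb1 held neither form. That says only that these letters are not there. The RefSeq window of Phf11c lies inside the long first exon that GENCODE gives this gene.

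Setdb2 shares its start region with Cab39l, a cofactor of the kinase Lkb1 that is transcribed the other way from 59440972. The 87 bases between the starts (chr14:59440885-59440971, shown on the minus strand) hold CCAAT on both strands, in capitals. That pentamer occurred in 37.4% of all windows. The windows of Phf11c and Phf11d also held it on both strands, and those of Phf11a, Phf11b and Rcbtb1 did not hold it.
Between Setdb2 and Cab39l: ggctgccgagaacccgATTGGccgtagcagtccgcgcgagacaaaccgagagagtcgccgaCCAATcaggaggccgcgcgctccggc
The gamma-activated site TTCNNNGAA (8.3% of windows on either strand) and the TATA box TATAAA (13.6%) were in none of the 6 windows. The E-box CACGTG (7.15% of windows), which reads the same on both strands, was in that of Rcbtb1 only, 58 and 40 bases before the start. These matches are letters in a window and do not show binding.

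Phf11c stood apart from the other 5 genes in these livers. Its level was 6.53, 6.76 and 9.51 CPM in female Fl/Fl libraries 5, 7 and 9, and 34.8, 72.8, 35.6 and 59.0 CPM in LKO 3, 4, 12 and 13. The male control stood at 20.5 CPM. Every LKO library was above every Fl/Fl library, and the male control lay between the groups, above each female control. The means were 50.6 ± 18.6 CPM in LKO (SD, n = 4) and 7.60 ± 1.66 CPM in female Fl/Fl (SD, n = 3). The fitted log2 fold change was 2.73 ± 0.33, or 6.65-fold.

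These levels rest on 489 to 729 reads in the female Fl/Fl libraries and 2645 to 5267 reads in LKO. Counting error is small at such depth: the 95% exact Poisson interval of the lowest count, 489, runs from 447 to 534 reads. LKO 4 and 13 were the higher pair and LKO 3 and 12 the lower pair, and the spread among LKO livers was far wider than counting error. Leaving out 1 library at a time gave log2 fold changes from 2.51 (without LKO 4) to 2.92 (without Fl/Fl 9).

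Setdb2 differed in the same direction and by less. It stood at 24.8, 22.6 and 19.4 CPM in female Fl/Fl 5, 7 and 9 and at 29.0, 65.8, 37.6 and 44.3 CPM in LKO 3, 4, 12 and 13. The groups did not overlap, but LKO 3 was close to Fl/Fl 5 and to the male library at 25.8 CPM. The log2 fold change was 0.99 ± 0.27, or 1.98-fold. Without LKO 4, the highest library, it was 0.73, the lowest of the 8 fits that each left out a library. Both Setdb2 and Phf11c were highest in LKO 4 and next in LKO 13. LKO 12 and 3 followed for both, but for Phf11c those 2 were level within counting error (2666 and 2645 reads).

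**Figure D1:**
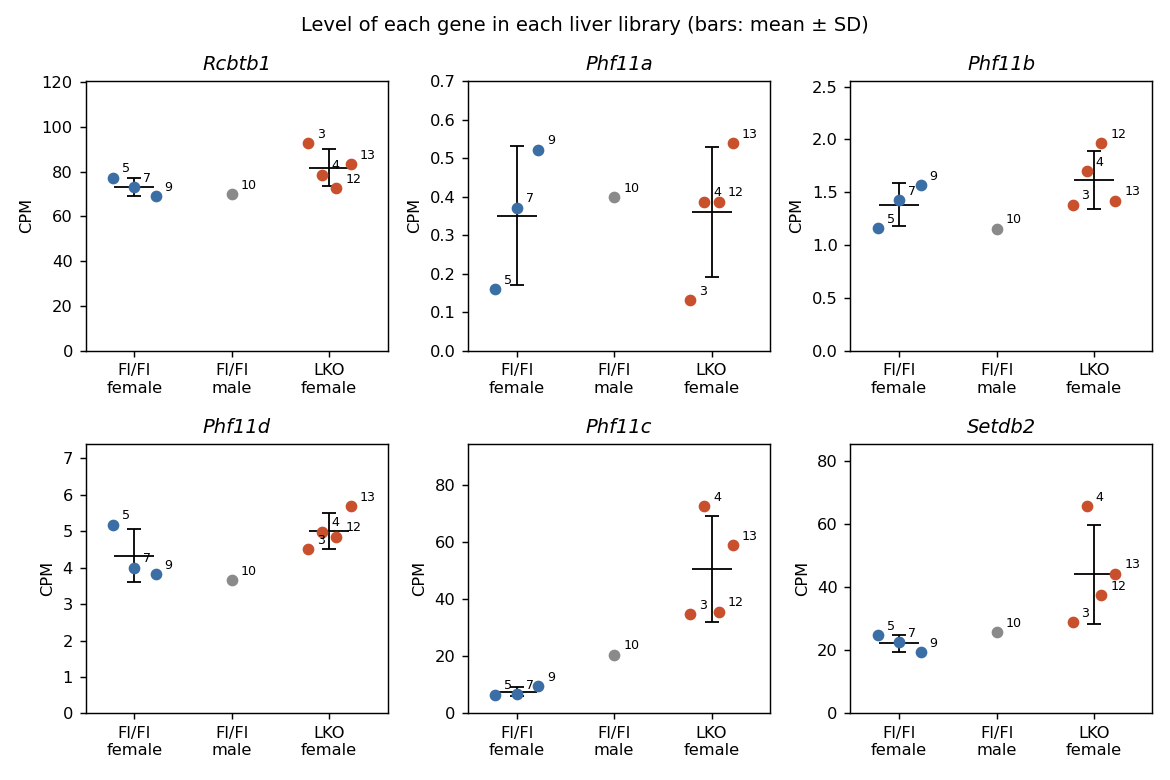
Level of each of the 6 genes (CPM on library sizes scaled by TMM, linear axes from 0, a different range per panel) in the 3 female Fl/Fl libraries (blue), the male Fl/Fl library (grey) and the 4 LKO libraries (orange). Numbers are replicate labels, horizontal bars the mean and error bars the SD. Phf11c runs from 34.8 to 72.8 CPM in LKO and from 6.53 to 9.51 CPM in female Fl/Fl, Setdb2 does not overlap either, and the groups overlap for the other 4 genes.

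The other 4 genes overlapped between the groups. Rcbtb1, the most abundant, held 72.7 to 92.6 CPM in LKO and 69.0 to 77.2 CPM in female Fl/Fl, with 69.9 CPM in the male library (log2 0.16 ± 0.10). Phf11d held 4.50 to 5.69 CPM in LKO and 3.82 to 5.18 CPM in female Fl/Fl, with 3.65 CPM in the male library (log2 0.21 ± 0.16). Phf11b held 1.38 to 1.96 CPM in LKO and 1.16 to 1.57 CPM in female Fl/Fl, with 1.16 CPM in the male library (log2 0.22 ± 0.23). LKO 3 was the highest library for Rcbtb1, LKO 13 for Phf11d and LKO 12 for Phf11b, so no 1 library led all of them.

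Phf11a was barely detected, with 217 reads over all 8 libraries. It had 12, 29 and 40 reads in female Fl/Fl 5, 7 and 9, 28 reads for the male control and 10, 28, 29 and 41 reads in LKO 3, 4, 12 and 13. The groups covered the same range. The log2 fold change of 0.04 ± 0.53 turned negative when some libraries were left out, between -0.30 and 0.43. At this depth a 10-read library has a 95% exact Poisson interval of 4.80 to 18.4 reads, so small differences in Phf11a were not detectable.

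All 6 genes passed the filter on low counts and entered the fit. Of the 6, Phf11c alone was past an adjusted p of 0.05 in edgeR's quasi-likelihood test, against 1.41% of the 16420 genes tested (1.02% higher). Phf11c and Setdb2 were the 2 without overlap between LKO and female Fl/Fl, against 15.1% of the genes tested (8.85% with LKO higher). DESeq2 put Setdb2 past the threshold as well. Because the genes were picked on this contrast, nothing is read from these counts. Over all genes the number past the threshold hung on single libraries. It was 167 higher and 65 lower with every library in, 2 and 2 when Fl/Fl 5 was dropped, 25 and 12 when Fl/Fl 7 was, and 476 and 251 when Fl/Fl 9 was. Dropping LKO 4, 12 or 13 left 36 and 11, 111 and 30, or 44 and 14. Phf11c did not pass in the fits without Fl/Fl 5, without Fl/Fl 7 or without LKO 13, nor with genotype as the only term. In the authors' deposited table, which compares LKO with all 4 Fl/Fl libraries, the log2 fold changes are 2.22 for Phf11c, 0.93 for Setdb2, 0.28 for Phf11b, 0.26 for Phf11d, 0.18 for Rcbtb1 and -0.01 for Phf11a.

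Levels of different genes can be compared only per length, here with the FPKM that the authors deposited (reads scaled to gene length and library size). In female Fl/Fl the order was Rcbtb1 at 12.6 ± 0.68 FPKM, Setdb2 at 5.71 ± 0.68, Phf11c at 2.28 ± 0.51, Phf11b at 1.21 ± 0.18, Phf11d at 1.00 ± 0.17 and Phf11a at 0.27 ± 0.14 (SD, n = 3). Neighbours in this order did not overlap between libraries, except Phf11b and Phf11d. In LKO the means were 15.2 ± 5.58 FPKM for Phf11c, 14.1 ± 1.495 for Rcbtb1 and 11.3 ± 4.03 for Setdb2 (SD, n = 4). These 3 overlapped one another there, while Phf11b, Phf11d and Phf11a stayed at 1.42 ± 0.23, 1.16 ± 0.12 and 0.28 ± 0.13 FPKM. At the gene lengths the authors used, Phf11c was thus below both flanking genes in female Fl/Fl and overlapped them in LKO.

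Phf11c and Setdb2 also differed from each other between libraries. The ratio of Phf11c to Setdb2 FPKM was 0.31, 0.35 and 0.57 in female Fl/Fl 5, 7 and 9. The male control had a ratio of 0.93. In LKO 3, 4, 12 and 13 the ratio was 1.41, 1.29, 1.11 and 1.56. Phf11c was below Setdb2 in all 4 Fl/Fl libraries and above it in all 4 LKO libraries. The ratio depends on the gene lengths used by the authors, which for Phf11c include the long first exon, but the same lengths apply to every library. A shorter Phf11c, as from the RefSeq start inside that exon, would raise every ratio by the same factor. The comparison between libraries would stand, but which of them lie below or above equal levels could change.

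**Figure D2:**
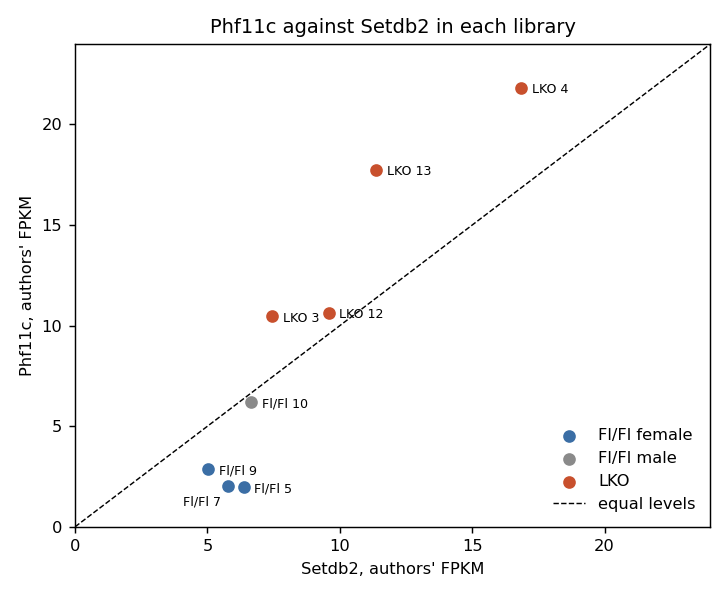
Phf11c against Setdb2 in each library, both as the authors' FPKM on linear axes, with the dashed line marking equal levels at the gene lengths the authors used. The 4 LKO libraries (orange) lie above the line at ratios of 1.11 to 1.56, and the 3 female Fl/Fl libraries (blue) and the male one (grey) lie below it.

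Among the 4 paralogs, the difference lay with Phf11c. Phf11c took 50.1%, 53.8% and 61.7% of the paralogs' reads in female Fl/Fl 5, 7 and 9, 79.8% for the male control, and 83.2% to 91.1% in LKO. Phf11a, Phf11b and Phf11d together held 5.79 to 6.50 CPM in female Fl/Fl and 6.02 to 7.65 CPM in LKO, ranges that overlap. With the reads of all 4 paralogs added to 1 value before the fit, the log2 fold change was 2.07 ± 0.26. That sum does not depend on how counted reads were divided among the 4, but it would not hold reads left uncounted for fitting several places, or reads counted under Gm6904.

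**Figure D3:**
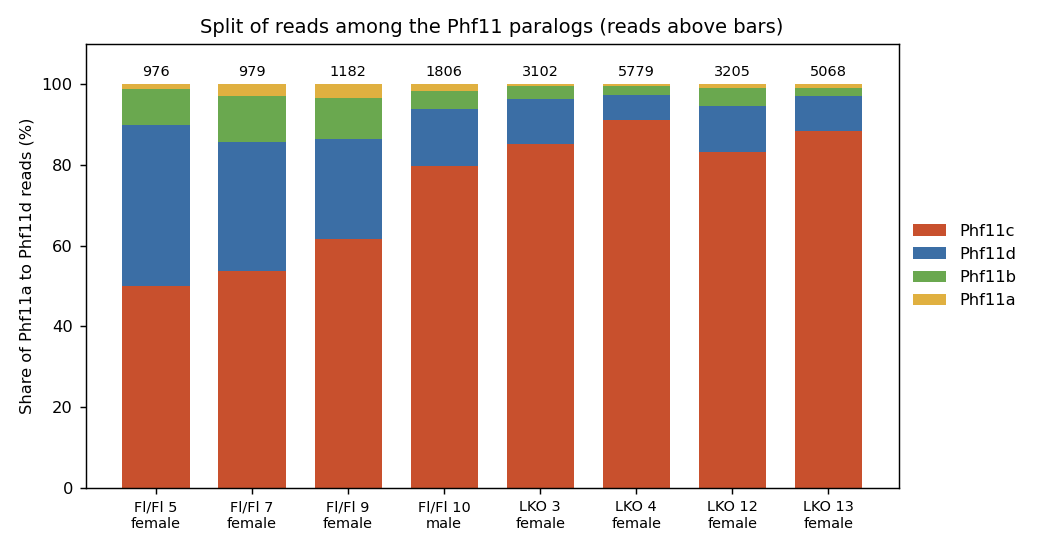
Share of the reads of Phf11a, Phf11b, Phf11c and Phf11d that each paralog took in each library (stacked bars, percent), with the number of reads above each bar. Phf11c takes 50.1% to 61.7% in female Fl/Fl, 79.8% in the male Fl/Fl library and 83.2% to 91.1% in LKO, while total reads go from 976 to 5779.

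The genes around the cluster were examined to see how far along the chromosome the difference reached. Of 45 other listed genes that start within 2 Mb of the 6, 28 were tested and 0 passed (edgeR quasi-likelihood test; 5 had an unadjusted p under 0.05, 2 higher and 3 lower). DESeq2 called 1 higher, the mitochondrial ribosomal protein gene Mrpl57 at 21.6 ± 2.01 against 16.3 ± 1.73 CPM. The median log2 fold change of the 28 was -0.13, against -0.0032 over all genes tested, and 19 of them were negative. Among the 19 of the 28 with a mean of at least 1 CPM, values ran from -0.34 (Spata13) to 0.41 (Mrpl57). Here and in the lists below, counts at an unadjusted p under 0.05 are a description. Over all genes tested, an unadjusted p of 0.05 matched an adjusted p of 0.311 (edgeR), so such p-values were common throughout. No excess is read from these counts. Past the threshold were 1.41% of all genes tested, so 0 of 28 is near that share, and no lack is read from it.

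Close to the cluster the pattern broke off on either side of Setdb2 and Phf11c. Cab39l, which starts 87 bases from Setdb2, held 73.2 ± 3.80 CPM in LKO and 78.1 ± 9.36 CPM in female Fl/Fl (log2 -0.09 ± 0.10, adjusted p = 0.696, edgeR). Cdadc1, a cytidine deaminase family gene whose 3′ part overlaps that of Cab39l on the other strand, held 44.8 ± 2.01 and 43.8 ± 1.95 CPM (log2 0.03 ± 0.08, adjusted p = 0.887, edgeR). As no strand setting is known for the counting, reads of this overlap may be shared. The further Phf11 copy Gm6904 had 16 to 29 reads per LKO library, 10 to 22 per female Fl/Fl library and 1 in the male control (log2 0.46 ± 0.47, adjusted p = 0.687, edgeR). Shisa2 and Atp8a2 had under 0.3 CPM on average in both groups, and neither passed (adjusted p = 0.941 and 0.832, edgeR).

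A pseudogene inside Setdb2, Gm16301 (59414270 to 59414564, in an intron and on the same strand), had too few reads to be tested. It held 7 to 26 reads in each LKO library, 4 to 6 in each female Fl/Fl library and 0 in the male control. The groups did not overlap, but their nearest values, 7 and 6 reads, were level within counting error. Among the genes tested, 15.1% had no overlap between LKO and female Fl/Fl. Reads of unspliced Setdb2 RNA cannot be told apart from reads of the pseudogene. Another pseudogene, Gm18073, had 14 reads, all in the male library.

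**Figure D4:**
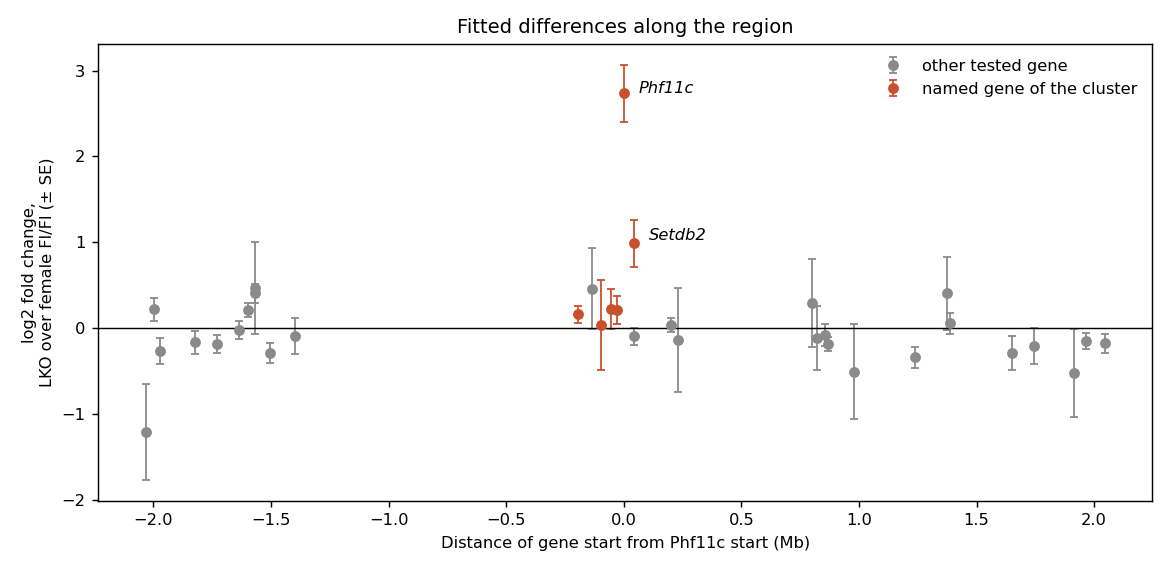
Fitted log2 fold change of LKO over female Fl/Fl (error bars: standard error) for the 6 named genes (orange) and the 28 other tested genes (grey), by the distance of each gene's start from that of Phf11c in Mb. Phf11c at 2.73 and Setdb2 at 0.99 stand above the rest, whose values run from -1.21 to 0.47, and Cab39l beside Setdb2 is at -0.09.

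Because the Phf11 genes and Setdb2 are known interferon targets, other interferon-induced genes were set beside them. Of 55 tested interferon-stimulated genes, such as the Ifit, Oas and Gbp families, 0 passed in LKO against female Fl/Fl (edgeR; 7 up and 2 down with an unadjusted p under 0.05). As 1.41% of all genes tested passed, 0 of 55 is near that share, and no lack is read from it. The median log2 fold change of the list was 0.07, with 35 positive and 20 negative. Usp18, which removes ISG15 from proteins and dampens interferon signalling, stood at 25.8 ± 5.82 against 14.2 ± 2.999 CPM (adjusted p = 0.0684, edgeR). Ifi27l2a stood at 4.85 ± 1.15 against 2.36 ± 0.67 CPM (adjusted p = 0.0703, edgeR). DESeq2 called both higher, together with Bst2, a membrane tether of viruses, at 150 ± 15.3 against 115 ± 10.2 CPM. The summed level of the list was 1582 to 2010 CPM in LKO, 1622 to 1825 CPM in the female controls and 1422 CPM in the male one. The ranges of LKO and female controls overlap.

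Of 24 tested genes of interferon signalling itself (receptors, kinases, STAT and IRF factors), 0 passed (edgeR; 1 up and 3 down with an unadjusted p under 0.05; 2 lower by DESeq2). The members with the smallest p were Tlr3, a receptor for double-stranded RNA, at 5.48 ± 0.24 against 8.53 ± 1.69 CPM (adjusted p = 0.0687, edgeR), and Irf1 at 13.6 ± 1.14 against 17.6 ± 2.04 CPM (adjusted p = 0.140, edgeR). The ligand genes Ifnb1 and Ifng were under 0.1 CPM in every library. On the log2 scale this list had a median of -0.05, with 9 positive and 15 negative.

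Among 25 other tested genes of histone H3 lysine 9 methylation, the mark that Setdb2 writes, 1 was lower and 24 did not pass (edgeR; median log2 -0.09, with 16 negative; 3 lower by DESeq2). The 1 was Atf7ip, a partner that stabilises the related enzyme Setdb1, at 23.9 ± 1.36 against 38.4 ± 7.22 CPM (log2 -0.68 ± 0.12, adjusted p = 0.0270, edgeR). It did not pass without Fl/Fl 5, Fl/Fl 7, LKO 4 or LKO 13. Of 19 tested RCC1, BTB and cullin 3 genes related to Rcbtb1, 0 passed (edgeR; 4 up and 2 down with an unadjusted p under 0.05; 1 higher and 1 lower by DESeq2; median log2 0.04). Rhobtb1, which encodes a BTB-domain protein, stood at 120 ± 34.6 against 55.3 ± 9.36 CPM (adjusted p = 0.0530, edgeR). Klhl20, an adaptor of cullin 3, stood at 7.79 ± 0.42 against 10.8 ± 1.298 CPM (adjusted p = 0.0935, edgeR).

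Genes known to respond to glucocorticoids, which also induce Setdb2 in liver, were counted in the same way. Of 22 tested, 3 rose and 19 did not pass (edgeR; median log2 0.52 against -0.0032 over all genes), where 1.02% of all genes tested rose. DESeq2 called 11 of the list higher, and 570 genes in all. Whether this list differed from the others was not tested. The list was put together with earlier results of these libraries known, so its direction is not independent evidence. The 3 were the metallothioneins Mt1 (adjusted p = 0.00127) and Mt2 (adjusted p = 0.00954) and the transcriptional repressor Bcl6 (adjusted p = 0.0270, all edgeR). With each library dropped in turn, Mt1 passed in all 8 fits, Mt2 in all but that without Fl/Fl 5, and Bcl6 in 4, failing without Fl/Fl 5, Fl/Fl 7, LKO 3 or LKO 4. The list's summed level was 13719 to 18844 CPM in LKO, 11911 to 12274 CPM in the female controls and 14194 CPM in the male one. As for Phf11c, the highest library was LKO 4 and the male control was above the female ones, but here it was also above LKO 12.

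Phf11 and interferon-induced genes are expressed in immune cells, so markers of those cells were summed per library. T and NK cell markers (28 genes) held 22.6 to 32.8 CPM in LKO and 19.4 to 30.3 CPM in female Fl/Fl, and B and plasma cell markers (19 genes) 15.3 to 23.5 and 23.1 to 26.5 CPM. Macrophage and dendritic cell markers (26 genes) held 693 to 853 and 603 to 845 CPM, and granulocyte markers (15 genes, with Mpo and Mcpt8 under 0.1 CPM throughout) 16.5 to 27.5 and 13.5 to 29.3 CPM. A large part of the T and NK cell sum came from 1 gene, Zap70, with a mean of 14.5 CPM in LKO and 8.77 CPM in female Fl/Fl. The sum is thus not a level of these markers in general. The ranges of LKO and female Fl/Fl overlapped for all 4 lists, for B and plasma cells only between 23.1 and 23.5 CPM. Their part in the level of Phf11c was not tested. The macrophage and dendritic cell sum was 603, 724 and 845 CPM in female Fl/Fl 5, 7 and 9 and 685 CPM in the male control. In LKO 3, 4, 12 and 13 it was 761, 853, 848 and 693 CPM. LKO 4 was highest in both this sum and Phf11c, and Fl/Fl 5 lowest in both. LKO 13, second in Phf11c, was below Fl/Fl 7 and Fl/Fl 9 in this sum.

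By gene, 20 of 26 tested T and NK cell markers had a negative log2 fold change (median -0.21), and so had 15 of 16 B and plasma cell markers (median -0.31), against a median of -0.0032 over all genes. For macrophages and dendritic cells it was 12 of 26 (median 0.07), and for granulocytes 2 of 7 (median 0.11). Of the T and NK cell markers 1 passed, the T cell kinase gene Zap70 at 14.5 ± 1.61 against 8.77 ± 1.03 CPM (log2 0.73 ± 0.13, adjusted p = 0.0270, edgeR). It did not pass without Fl/Fl 5, Fl/Fl 7, LKO 4 or LKO 12. None of 16 B and plasma cell, 26 macrophage and dendritic cell or 7 granulocyte markers did (edgeR; 2, 5 and 0 at an unadjusted p under 0.05; 0, 3 and 0 by DESeq2). The same was true of 17 hepatocyte, 13 cholangiocyte, 13 endothelial and 14 stellate cell and fibroblast markers (edgeR; 5, 2, 1 and 3 at an unadjusted p under 0.05; 3, 0, 0 and 1 by DESeq2). Markers of smallest p in their lists were Cd79b and Ighd (B cells), Cd163 and Bst2 (macrophages), Csf3r and Mmp8 (granulocytes), Hnf4a and Tat (hepatocytes), Muc1 (cholangiocytes), Stab1 and Kdr (endothelium) and Lum and Colec11 (stellate cells). Their adjusted p-values ran from 0.0646 for Hnf4a to 0.778 for Mmp8 (edgeR). Bst2 is also in the interferon-stimulated list, and Tat responds to glucocorticoids.

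The genes whose profile over the 8 libraries came closest to that of Phf11c were listed by the root mean square difference of log2 CPM, each gene centred on its own mean. The closest was Mt2, at 0.34 on the log2 scale, against an SD of 1.38 for Phf11c itself. Mt2 held 13.2 to 21.8 CPM in LKO, 3.18 to 5.67 CPM in the female controls and 7.50 CPM in the male one, in the same order of groups as Phf11c. The next were Gm42868 (0.40), the calcium-binding protein gene S100g (0.41), the epithelial transcription factor gene Grhl3 (0.54) and Gm26785 (0.56), all of at most 1.34 CPM. Setdb2 came at rank 116 with a difference of 0.86, and Phf11d, Phf11b, Rcbtb1 and Phf11a lay at 1.20, 1.20, 1.23 and 1.32. All 8 libraries are shared in these comparisons, and a small difference is a description of likeness with no test.

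The profile of Setdb2 was closest to those of Tmprss2, a membrane serine protease gene (0.16), Art4 (0.20) and Glt1d1 (0.21). Tmprss2 held 11.9 to 22.1 CPM in LKO and 6.84 to 9.92 CPM in female Fl/Fl, without overlap. For Rcbtb1, whose libraries varied little (SD 0.14), the closest were Snap23 (0.04), Picalm (0.05) and Gid4 (0.06). For Phf11d they were Ptar1, Gm38394 and Srcap (0.10 to 0.11), for Phf11b Add3, Zcwpw1 and Gm2a (0.09), and for the sparsely counted Phf11a Gm8181, Tacc3 and Stc1 (0.27 to 0.28). No gene was named for more than 1 of the 6.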

How the data were processed

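Total RNA of 8 livers was sequenced. The NEBNext Ultra kit was used, per the labels' protocols. The submitters' processing notes name fastp, STAR, HTSeq, featureCounts, DESeq, DESeq2, edgeR and mm10, without roles, and no source used here states strand or multi-mapping settings. In their table the authors deposited read counts per gene, normalised signal (the counts divided by 1 size factor per library), FPKM per gene length, and their own log2 fold change, p-value and adjusted p.

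Counts were fitted in R 4.3.3 with edgeR 4.0.16 (filterByExpr, TMM, robust quasi-likelihood F test, genotype and sex over all 8 libraries). P-values were Benjamini-Hochberg adjusted over 16420 genes at a threshold of 0.05. Labels give distinct samples but no litters, so a p-value reflects only the spread among these samples, which may be technical. A library's 3 reads are worth 0.0385 to 0.0428 CPM; intervals cover counting error only. Simulated counts were tested for the same comparison over 16142 genes, with 200 genes changed, all of a mean CPM above 1 on the log2 scale. Of log2 changes of 1, 92.5% were recovered, and of those of 2, 100%. Of the calls, 4% were false. The simulation drew each gene independently, with a spread set by its expression level alone. It held no sex difference and no shift shared by the genes of a library. These shares therefore do not give the power reached in the real libraries.

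Members, 13 gene lists and tests were chosen with earlier results of these data known. Named were the members, genes within 200 kb, called neighbours within 2 Mb, up to 5 called genes per list or otherwise the 2 of smallest p, and the closest profiles. A marker that this rule names is not reported here. Transcripts are GENCODE M21, aligned with MAFFT and Biopython 1.88; promoters are RefSeq's.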

Additional observations from a re-analysis of the deposited data

How the results depend on the processing

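No paired analysis was possible because the genotypes share no replicate numbers. Phf11c and Setdb2 kept their direction in every alternative where they were fitted. For both, every LKO library was above every Fl/Fl library. Dropping libraries could therefore not have reversed the direction, and nothing is read from this. The log2 fold change of Phf11c was 2.22 with genotype as the only term, where the male library counts as a plain control. That of the 4 paralogs summed, a fit with no separate value for Phf11c, was 2.07. Without Fl/Fl 5 and 7, an alternative added after seeing the data, it was 2.40 for Phf11c and 1.18 for Setdb2, against 1 female control. Leaving out 1 library gave 2.51 to 2.92 for Phf11c and 0.73 to 1.14 for Setdb2.

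Genes past the threshold, higher and lower, numbered 167 and 65. They were 1 and 0 with genotype alone, 320 and 142 with no filter beyond 1 read, 570 and 315 with DESeq2, and 8 and 18 without Fl/Fl 5 and 7. Leaving out 1 library gave 2 to 476 higher and 2 to 251 lower. Interferon-stimulated genes past the threshold, 0 in each direction, became 2 higher with no filter and 3 higher with DESeq2; leaving out 1 library gave 0 to 2 in each direction, the 2 and 2 without Fl/Fl 9 (Bst2 and Ifi27l2a higher, Ddx58 and Irgm2 lower). Neighbours, also 0, became 1 higher with DESeq2 and 0 to 1 higher when 1 library was left out, the 1 being Mrpl57 without Fl/Fl 9. The cause of these shifts was not tested. Phf11a, with 10 to 41 reads per library, is limited by depth.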
